A study of Homo sapiens with 18 samples.

Results

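MALAT1 and NEAT1 are neighbouring genes of long noncoding RNAs (lncRNAs) on the plus strand of chromosome 11, and the counts of short reads within them were followed in small RNA-seq of HEK293T cells, a human embryonic kidney line. The members are all features of the deposited count table that carry the name MALAT1 or NEAT1 on chromosome 11, together with every feature of at most 500 nt inside them. Of 175935 features, 74 met this rule: 39 named MALAT1, 30 named NEAT1 and 5 short features of another name. The short ones are a pair of MIR612 features and a feature of the RNA family RF01684 in NEAT1, and a second RF01684 feature and AP000769.2 in MALAT1. Features of 1 gene overlap, a read is counted in each feature it touches, and the 74 members held 65 distinct patterns of counts over the libraries. They are therefore not independent measurements.

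Cells had been transfected through RNAiMAX for 48 h with an siRNA against SSB (siSSB) or with a scramble siRNA (control). RNA was isolated from whole cells (total), nuclei (nuc) or cytoplasm (cyto) with a kit that separates these fractions, and every library is titled as made with PNK (polynucleotide kinase, which repairs RNA ends so that they can be ligated). The 6 groups, control and siSSB in each kind of RNA, had 3 libraries each. The labels do not say whether replicates were separate cultures, so p-values here measure the spread between these libraries, which may be technical. In such bulk RNA, a smaller number of cells and less RNA per cell cannot be told apart.

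MALAT1 is an abundant nuclear lncRNA of the nuclear speckles, and NEAT1 is the scaffold of the paraspeckles, made as a short and as a long transcript that share their 5′ end. Neither MALAT1 nor the long NEAT1 transcript ends in a usual poly(A) tail. RNase P, the enzyme that trims the 5′ leader of tRNA precursors, cuts beside a tRNA-like fold. It leaves a 3′ end that U-rich and A-rich stretches protect as a triple helix. The tRNA-like piece released is called mascRNA in MALAT1 and menRNA in NEAT1. Once released, mascRNA is trimmed, given CCA like a tRNA and exported to the cytoplasm. SSB encodes La, a protein that holds the U-rich tail of fresh RNA polymerase III products such as tRNA precursors.

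The sequences of both tRNA-like RNAs and of the 60 bases before each cut are shown because 1 of the pair was counted in these libraries and the other was not. All were read from hg38 on the plus strand. In the first pair the positions are those of the GENCODE genes, and capitals mark the 41 of 61 columns of a pairwise alignment (67.2%) in which both RNAs have the same base.
menRNA, chr11:65445541-65445598: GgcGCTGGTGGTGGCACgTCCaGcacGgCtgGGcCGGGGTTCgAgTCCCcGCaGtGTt
mascRNA, chr11:65506117-65506173: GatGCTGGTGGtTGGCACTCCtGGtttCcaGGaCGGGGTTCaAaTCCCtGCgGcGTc
In the second pair, which ends at the cut, capitals mark the longest stretch the windows share (16 bases, U-rich in the RNA) and the 11 bases they share at their 3′ ends.
before menRNA, chr11:65445481-65445540: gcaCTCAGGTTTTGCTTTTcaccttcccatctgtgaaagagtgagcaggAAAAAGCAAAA
before mascRNA, chr11:65506057-65506116: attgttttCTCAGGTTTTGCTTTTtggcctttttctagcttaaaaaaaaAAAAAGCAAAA
The longest run of A in the window was 13 bases before mascRNA and 5 bases before menRNA.

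The sum over features of at most 500 nt that are no lncRNA, with identical features taken once, was 2375990 to 7675990 counts per library. The column sums ranged from 21565995 to 158244813 because overlapping features count a read repeatedly, and they were highest in nuc. SnoRNAs, which work in the nucleus, summed to 217615 to 605653 counts in the 6 cyto libraries and to 4031514 to 6383516 in the 6 nuc libraries. In the table, 0 features carry the name SSB, so the knockdown itself was not measured and siSSB names libraries by their label. Strand was not used in the counting (all 85 of 85 snoRNAs inside a longer feature of the opposite strand were counted in it), so reads of MALAT1 and of TALAM1, its antisense RNA, cannot be told apart.

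The feature called the MALAT1 feature here (65497736 to 65506494, hg38, 8759 nt) was the nearest to the RefSeq gene once the flanks of 25 nt were taken off, whereas the GENCODE gene runs from 65497640 to 65508073. It had 327, 384 and 433 counts in control total RNA. Control nuclei had 214, 153 and 99, and control cytoplasm 474, 414 and 693. The siSSB libraries had 426, 629 and 435 MALAT1 counts in total RNA, 243, 328 and 234 in nuclei and 647, 641 and 662 in cytoplasm. Before any scaling, all siSSB nuc libraries held more MALAT1 counts than all control nuc libraries, whereas in total and cyto the counts overlapped. The corresponding NEAT1 feature (65422773 to 65445565, 22793 nt) had 587, 535 and 616 counts in control total RNA, 256, 247 and 197 in control nuclei and 448, 387 and 767 in control cytoplasm. With siSSB the counts were 561, 720 and 553 in total RNA, 280, 397 and 209 in nuclei and 592, 566 and 589 in cytoplasm. For NEAT1 the siSSB and control counts overlapped in total, nuc and cyto alike. All these are counts of short reads, from a small RNA kit, and not of whole transcripts of several kb.

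Per kb of feature, MALAT1 held more counts than NEAT1 in 18 of 18 libraries. The ratio of MALAT1 to NEAT1 counts per kb was lowest in control nuc (1.70 ± 0.44, SD, n = 3) and control total (1.72 ± 0.23), followed by siSSB total (2.10 ± 0.16), siSSB nuc (2.44 ± 0.41), control cyto (2.63 ± 0.24) and siSSB cyto (2.91 ± 0.05). Neighbours in this order differed by less than the larger of their SDs, except siSSB total from control total and siSSB cyto from control cyto.

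Scaled with TMM factors over all 18 libraries, MALAT1 levels, in CPM after this scaling, were 4.91 ± 0.51 in control cyto (SD, n = 3), 5.15 ± 1.39 in control nuc, 5.90 ± 0.94 in siSSB cyto, 6.15 ± 0.46 in control total, 7.15 ± 0.40 in siSSB total and 7.72 ± 0.48 in siSSB nuc. Control cyto, control nuc, siSSB cyto and control total each differed from the next in this order by less than the larger SD, whereas siSSB total and control total, and siSSB nuc and siSSB total, differed by more. NEAT1 levels had another order, with 4.90 ± 0.87 in control cyto and 5.27 ± 0.75 in siSSB cyto, then 7.87 ± 0.71 in control nuc, 8.38 ± 1.44 in siSSB nuc, 8.88 ± 0.48 in siSSB total and 9.38 ± 0.68 CPM in control total. In that order the step from siSSB cyto to control nuc was the only one above the larger SD. Both cyto groups lay below all 12 nuc and total libraries for NEAT1, which was not so for MALAT1. The mascRNA feature had its highest level in control total (0.29 ± 0.08 CPM) and its lowest in control nuc (0.010 ± 0.017 CPM).

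**Figure D1:**
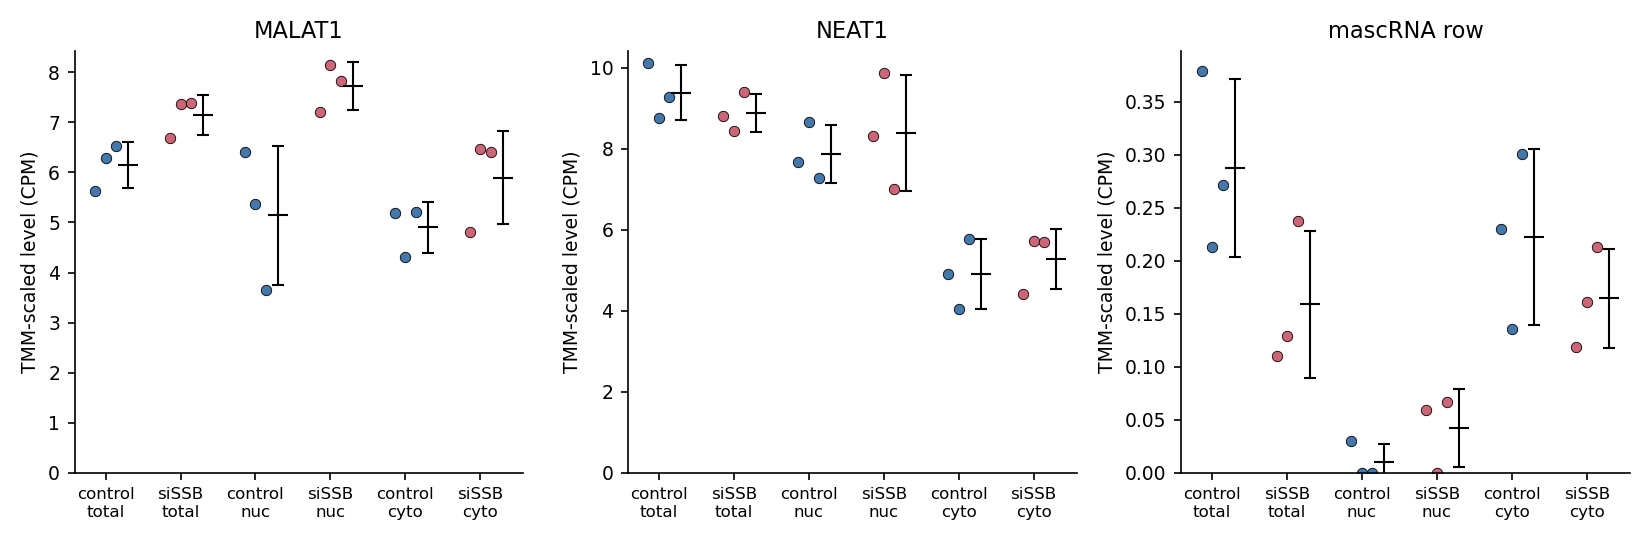
TMM-scaled level (CPM, linear axis from 0) of the MALAT1 feature, the NEAT1 feature and the mascRNA feature in each of the 18 libraries. Each dot is 1 library, blue for control and red for siSSB, and the bar beside each group is the mean ± SD (n = 3, cut at 0). NEAT1 is lowest in the 6 cyto libraries, whereas the mascRNA feature is lowest in the 6 nuc libraries.

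The fraction comparison asked where the reads of each gene lie in the cell. In control cells NEAT1 was higher in nuc than in cyto relative to the other features tested, MALAT1 did not pass the test, and the mascRNA feature at the 3′ end of MALAT1 was lower in nuc. The log2 fold change of nuc over cyto was 0.81 ± 0.29 (SE) for NEAT1 (adjusted p = 0.0427, edgeR quasi-likelihood test, Benjamini-Hochberg method) and 0.19 ± 0.30 for MALAT1 (adjusted p = 0.703). The TMM-scaled levels of nuc and cyto did not overlap for NEAT1. The NEAT1 call was lost when any 1 of 5 of the 6 libraries was left out (adjusted p = 0.0597 to 0.284) and kept only without control cyto replicate 3 (adjusted p = 0.0352). These tests did not pair nuc with cyto libraries, and the call was kept with replicate numbers as a block. In siSSB cells the differences were 0.79 ± 0.31 for NEAT1 (adjusted p = 0.0646) and 0.51 ± 0.30 for MALAT1 (adjusted p = 0.244), so neither passed.

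The sign of these differences depends on how the libraries are put on 1 scale. Under TMM factors the median log2 fold change over all 26774 features tested in control cells was −0.27. Under library size alone it was −4.33, under the snoRNA total −6.01 and under the total of small features −3.16. With these 3 scalings NEAT1 became −3.34, −5.14 and −2.15 and MALAT1 −3.98, −5.80 and −2.79 in control cells, all lower in nuc, and under the miRNA total NEAT1 was −0.10 and MALAT1 −0.65. Because a scaling moves all features of a fit nearly alike, distances from the median feature change little with it by construction. The 6 scalings are therefore no separate checks of them. Measured against the median feature of the same fit, NEAT1 stood 0.82 to 1.09 higher in nuc on the log2 scale over the 6 scalings, and MALAT1 0.21 to 0.47 higher. In siSSB cells the same distances from the median were 0.63 to 0.98 for NEAT1 and 0.36 to 0.70 for MALAT1. The mascRNA feature lay below the median feature under each scaling in which it was tested, at −3.91 to −3.31 in control and −1.73 to −1.66 in siSSB cells.

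**Figure D2:**
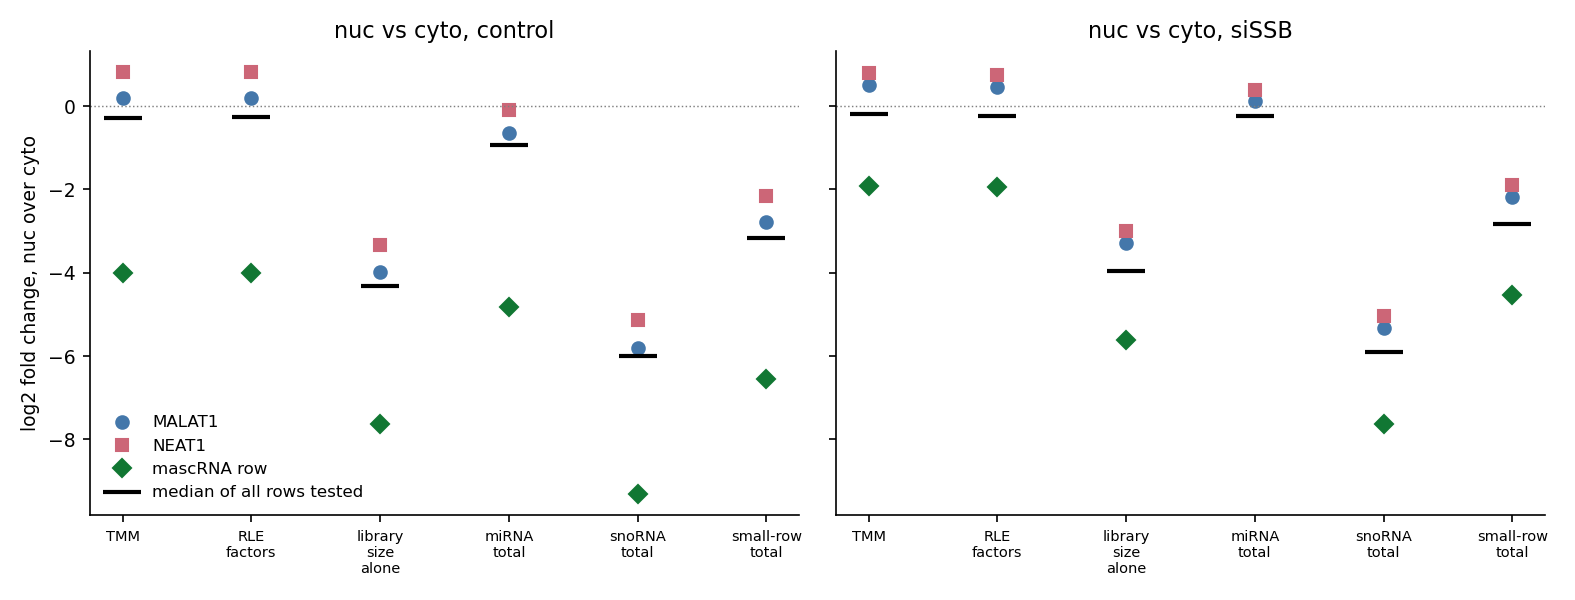
Log2 fold change of nuc over cyto for the MALAT1 feature, the NEAT1 feature and the mascRNA feature under 6 ways of scaling the libraries, in control (left) and siSSB cells (right). Black dashes give the median of all features tested under that scaling, and the mascRNA feature was filtered out under the miRNA total in siSSB cells. The absolute position moves with the scaling, from a median of −0.27 with TMM factors to −6.01 with the snoRNA total in control cells. The order of NEAT1, MALAT1 and mascRNA is nearly fixed by construction, because a scaling moves all features of a fit nearly alike.

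Among all members, 12 of 30 tested features of the NEAT1 locus were called higher in nuc in control cells, against 9.21% of all features tested, and 0 were called lower, against 14.1%. These 12 held 10 distinct patterns, and their log2 fold changes were all between 0.81 and 1.47. Of these, 6 spanned nearly all of the NEAT1 gene or more, 5 lay at its 5′ end and 1 in its 3′ part. The median over the 30 was 0.81, beside −0.27 over all features. The first 1524 nt (NEAT1, 65422773 to 65424296) gave 17, 22 and 16 counts in control nuclei and 22, 14 and 45 in control cytoplasm, and the scaled levels did not overlap (1.47 ± 0.38, adjusted p = 0.00343). Without control cyto replicate 2 the adjusted p of this feature was 0.0539. In the MALAT1 locus 1 of 40 tested features was called, the mascRNA feature, which was lower, and the median was 0.19. In siSSB cells, 5 of 30 NEAT1 and 3 of 40 MALAT1 features were called higher in nuc, against 10.8% of all features, and 0 were called lower, against 14.5%. Their medians were 0.79 and 0.50, beside −0.19 over all features. The 3 MALAT1 features all lay at the 3′ end. The one that starts last, from 65505182 to 65506541 (MALAT1, 1360 nt), held 40, 52 and 37 counts in siSSB nuc and 73, 65 and 65 in siSSB cyto (1.14 ± 0.33, adjusted p = 0.0105, and 0.0727 without siSSB cyto replicate 1). As for the complete genes, every tested feature of both loci had a negative log2 fold change under library size alone, the snoRNA total and the total of small features, in control and in siSSB cells. Under these 3 scalings, 25770 of 26774, 33815 of 34489 and 18471 of 19955 of all features tested were called lower in control cells. Under the miRNA total in control cells, 0 of 30 NEAT1 features were called and 4 of 40 MALAT1 features were called lower. Of all 13738 features tested in that fit, 1559 were called higher and 5749 lower.

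The ratio of MALAT1 to NEAT1 counts within a library is free of any scaling. The log2 ratio was −0.26, −0.69 and −0.99 in control nuclei against 0.08, 0.10 and −0.15 in control cytoplasm, with no overlap. In siSSB cells it was −0.20, −0.28 and 0.16 in nuc and 0.13, 0.18 and 0.17 in cyto, where 1 nuc library reached the cyto range. MALAT1 was thus lower against NEAT1 in nuc than in cyto, by 0.66 in control and 0.26 in siSSB cells. The mean difference over both was −0.46 (p = 0.01, exact two-sided permutation test within control and within siSSB over 400 arrangements, where 0.005 is the smallest p possible, and adjusted p = 0.01 over 2 ratios tested). It was negative in 6 of 6 pairs of equal replicate number, and −0.56 to −0.37 without any 1 library.

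The knockdown comparison asked whether MALAT1 and NEAT1 reads differ after knockdown of SSB. In no kind of RNA did the level of either gene change by the test. The log2 fold change of MALAT1 was 0.23 ± 0.21 (SE) in total RNA with an adjusted p of 0.656, 0.75 ± 0.28 in the nucleus with one of 0.249, and 0.25 ± 0.24 in the cytoplasm with one of 0.906 (edgeR quasi-likelihood test). For NEAT1 the values were −0.07 ± 0.22, 0.25 ± 0.27 and 0.10 ± 0.24, with adjusted p = 0.929, 0.659 and 0.984. Of the features tested at both loci, 0 of 70 were called in total, against 1.34% of all features, 0 of 67 in nuc, against 0.378%, and 0 of 70 in cyto, against 0.291%. At an unadjusted p under 0.05 there were 4 of 40 MALAT1 features in total, 32 of 38 in nuc and 0 of 40 in cyto, and 0 NEAT1 features, beside 2301 of 13883, 959 of 6873 and 1260 of 18921 over all features. The MALAT1 features share reads, and these counts depend on the scaling: in total RNA there were 27 or 28 MALAT1 features when scaled by library size, snoRNAs or small features, and 21 NEAT1 features under the miRNA total. These scalings moved the median over all features to 0.55, 0.71 and 0.55, and to −0.52 under the miRNA total. The share of all features at an unadjusted p under 0.05 was not counted for them. DESeq2 called 0 members in any kind of RNA, but in total it gave an adjusted p to only 26 of 40 MALAT1 and 14 of 30 NEAT1 features. Under the miRNA total, edgeR called 1 MALAT1 feature lower in total RNA, in a fit that called 1887 of 13170 features lower. With TMM factors over all 18 libraries, the MALAT1 levels of siSSB and control did not overlap in total or nuc. In cyto they overlapped, with 4.82, 6.46 and 6.41 CPM for MALAT1 in siSSB against 5.19, 4.31 and 5.22 CPM in control. That overlap depended on the factors: with those of the cyto libraries alone, as in the test, the MALAT1 levels did not overlap in cyto either. The median over the tested MALAT1 features was 0.24 in total, 0.75 in nuc and 0.25 in cyto, and over the NEAT1 features −0.07, 0.10 and 0.10, beside −0.01, 0.08 and 0.01 over all features tested. Under the miRNA total the MALAT1 median in total RNA turned to −0.28. Against the median feature of the same fit, the MALAT1 feature stood 0.25 to 0.27 higher in total, 0.59 to 0.70 in nuc and 0.22 to 0.28 in cyto over the 6 scalings. A scaling moves all features of a fit nearly alike, so these distances are nearly fixed and are no separate tests. The difference between the knockdown effects in nuc and cyto was 0.33 ± 0.44 for MALAT1 and −0.01 for NEAT1 (adjusted p = 0.991 and 1), and 0 of 70 member features passed it with edgeR or DESeq2, against 0.0133% of all features. At an unadjusted p under 0.05 there were 3 of 70 with edgeR, beside 1836 of 37493 over all features.

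Although neither level passed, the balance of both genes differed between siSSB and control libraries. The log2 ratio of MALAT1 to NEAT1 counts was −0.84, −0.48 and −0.51 in control total and −0.40, −0.19 and −0.35 in siSSB total, with all siSSB libraries above all controls. In cyto the groups again did not overlap, at 0.08, 0.10 and −0.15 against 0.13, 0.18 and 0.17. In nuc the highest control library (−0.26) lay above the lowest siSSB library (−0.28). The ratio was higher in siSSB by 0.30 in total, 0.54 in nuc and 0.15 in cyto on the log2 scale. The mean of 0.33 had p = 0.0005 (exact two-sided permutation test within each kind of RNA over 8000 arrangements, where 0.00025 is the smallest p possible, and adjusted p = 0.001 over the 2 ratios tested). That test counted total, nuc and cyto libraries as independent. The labels do not say whether these share cultures, and if they do, the p-value is too small. The ratio was higher in 9 of 9 pairs of equal number, but replicate numbers did not pair control with siSSB libraries. Its mean difference was 0.27 to 0.39 without any 1 library.

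**Figure D3:**
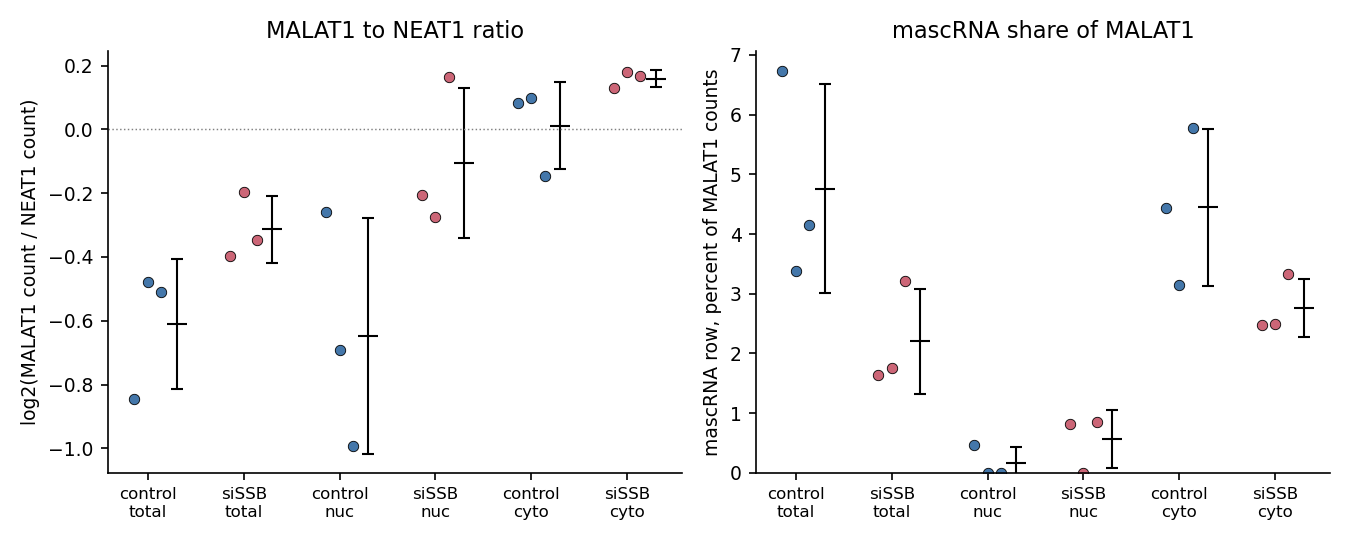
Left, log2 ratio of MALAT1 to NEAT1 counts in each library, with 0 (dotted) for equal counts. Right, counts of the mascRNA feature as a percent of the MALAT1 counts of the same library, with the axis from 0. Dots are libraries, blue for control and red for siSSB, and bars are mean ± SD (n = 3, cut at 0). In total and cyto every siSSB ratio lies above every control ratio, and the mascRNA share is under 1% in all 6 nuc libraries.

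The mascRNA feature (RF01684 in the table, 65506092 to 65506198) spans the 57 nt of mascRNA with 25 nt on each side. Its counts were 22, 13 and 18 in control total RNA, 1, 0 and 0 in control nuclei and 21, 13 and 40 in control cytoplasm. With siSSB they were 7, 11 and 14 in total RNA, 2, 0 and 2 in nuclei and 16, 16 and 22 in cytoplasm. The nuc libraries thus held 0 to 2 of its reads each, although they held 99 to 328 reads of MALAT1 as a whole. In these 18 libraries the mascRNA feature held 218 counts, or 2037 per kb, against 849 per kb over the MALAT1 feature. A MALAT1 feature that ends at 65506484 held 209 more counts than one that ends at 65506074, so at least 209 counts touched only this last stretch, in which the mascRNA feature lies. The 25 nt before the cut hold the A-rich end of MALAT1 itself, so reads of cut mascRNA, of the MALAT1 3′ end and of the uncut precursor cannot be told apart in this count.

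In control cells the mascRNA feature was lower in nuc than in cyto (log2 fold change −4.0 ± 0.95, adjusted p = 0.00149, edgeR quasi-likelihood test), a value that rests on 1 count in nuc and became −7.06 without control nuc replicate 1 (adjusted p = 0.00468). In siSSB cells the log2 difference was −1.91 ± 0.71 (adjusted p = 0.0504), and the test of the difference between the fractions' contrasts in siSSB and control cells did not pass (2.11 ± 1.47, adjusted p = 0.962). As a share of the MALAT1 counts, it took 0.47%, 0% and 0% in control nuclei against 4.43%, 3.14% and 5.77% in control cytoplasm. In siSSB cells the share was 0.82%, 0% and 0.85% in nuc and 2.47%, 2.50% and 3.32% in cyto. Summed over libraries, control nuc had 1 of 466 counts, or 0.21% with an exact 95% interval of 0.0054% to 1.19%, and control cyto 74 of 1581, or 4.68% (3.69% to 5.84%). These intervals cover counting error only, since reads without molecular identifiers are not independent molecules. The share was lower in nuc by 4.29 percentage points in control and 2.20 in siSSB cells, with no overlap in either (mean −3.25, p = 0.005, exact two-sided permutation test, the smallest p possible, and adjusted p = 0.0133 over 8 share tests). Compared within pairs of equal replicate number, a block that allows no p below 0.0312, the adjusted p was 0.0833.

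On knockdown the mean mascRNA share was lower in total and cyto, but the difference did not pass the correction. It was 6.73%, 3.39% and 4.16% in control total and 1.64%, 1.75% and 3.22% in siSSB total, without overlap. In cyto it was 4.45 ± 1.32% in control and 2.76 ± 0.48% in siSSB (SD, n = 3), with overlap, and in nuc 0.16 ± 0.27% and 0.56 ± 0.48%. The mean difference over the 3 kinds of RNA was −1.28 percentage points, lower in 6 of 9 pairs of equal number, which shared no pairing (p = 0.0335, adjusted p = 0.0536, exact two-sided permutation test over 8000 arrangements). Leaving out 1 library moved the adjusted p between 0.033 and 0.106, and 6 of 18 such tests passed: those without control cyto 2, control nuc 2 or 3, control total 2, siSSB nuc 1 or siSSB nuc 3. The level of the mascRNA feature differed by −0.86 ± 0.38 in total (adjusted p = 0.275) and −0.46 ± 0.32 in cyto (adjusted p = 0.84, edgeR quasi-likelihood test), and it was filtered out in nuc.

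In its course over the 18 libraries the mascRNA feature correlated with tRNAs and not with MALAT1. Its own mean was 12.1 counts, and its levels, at most 0.379 CPM, all lay below the 0.5 added before the log. Its course is therefore compressed and rests on few counts. Of the features with a mean of at least 50 counts, the closest in log2(CPM + 0.5) were tRNA-Asn-GTT-1-6 (Pearson r = 0.969), tRNA-Arg-TCT-4-1 (r = 0.963) and tRNA-Lys-TTT-1-2 (r = 0.961), although copies of a tRNA gene share reads. Among the 100 closest of 3509 distinct features 47 were tRNAs, which make up 10% of them. With MALAT1 as a whole its r was −0.01. These correlations are descriptions over libraries that fall into fractions. The tRNAs were set beside mascRNA after seeing the data. The 506 nuclear tRNA features tested in control cells had a median log2 fold change of −2.23 in nuc over cyto (379 lower, 12 higher), the same side as mascRNA. On knockdown the medians of the tRNA features were −0.82 in total (474 tested, 47 lower, 0 higher), −0.35 in nuc and −0.58 in cyto (488 tested, 20 lower), beside −0.86 and −0.46 for mascRNA in total and cyto.

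**Figure D4:**
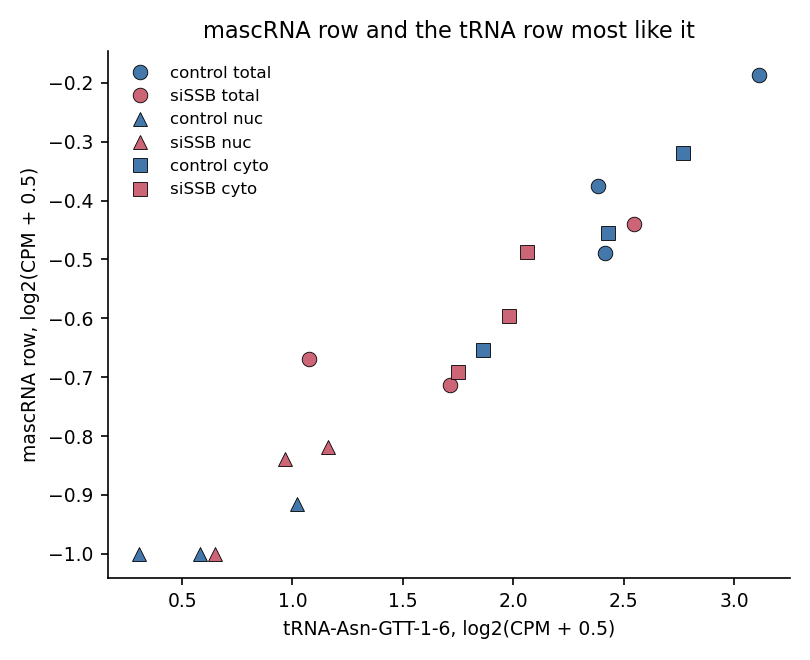
Log2(CPM + 0.5) of the mascRNA feature against that of tRNA-Asn-GTT-1-6, the feature with the most similar course, in the 18 libraries (r = 0.969). Circles are total, triangles nuc and squares cyto, blue for control and red for siSSB, and −1 on the vertical axis is a count of 0. The 6 nuc libraries lie lowest on the vertical axis, and 1 siSSB total library falls within their range on the horizontal axis.

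The menRNA feature, the same RNA family at the 3′ end of NEAT1 (65445516 to 65445623), held 0 counts in all 18 libraries. Against the 8507 counts of NEAT1 this allows a share of up to 0.0353% (3 counts, counting error only). In control cyto alone the limit is 0.187% of 1602 NEAT1 counts, where mascRNA took 4.68% of the MALAT1 counts. These shares are of unlike wholes, since the NEAT1 feature has 22793 nt and the MALAT1 feature 8759 nt. The last 5386 nt of NEAT1 were also sparse, with 164 counts per kb against 373 over the complete feature. At this depth menRNA was thus not detectable, while the mascRNA feature was counted in 15 of 18 libraries.

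MIR612, a microRNA gene inside the 3′ part of NEAT1, gave few counts. Its 150-nt feature (65444433 to 65444582) gave 2, 1 and 5 counts in control total RNA, 2, 3 and 5 in control nuclei and 0, 0 and 4 in control cytoplasm. With siSSB it gave 2, 1 and 0 in total RNA, 6, 5 and 2 in nuclei and 2, 0 and 2 in cytoplasm. Despite the small counts, its share of NEAT1 was higher in nuc in all 6 of 6 pairs. This was not particular to MIR612: the last 5386 nt of NEAT1, in which it lies, also took more of the summed NEAT1 counts in nuc. That stretch took 14.4% in control nuc and 9.36% in control cyto, and 14.7% and 10.1% in siSSB, shares that were not tested. For the 150-nt feature the values were as follows. The share was 1.51 ± 0.92% in control nuc and 0.17 ± 0.30% in control cyto, and 1.45 ± 0.62% in siSSB nuc and 0.23 ± 0.20% in siSSB cyto (SD, n = 3). The mean difference was 1.28 percentage points with no overlap in control or siSSB (p = 0.005, exact two-sided permutation test, the smallest p possible, and adjusted p = 0.0133 over 8 share tests). The 75-nt feature of its mature miRNA, nested in the first, gave 1.04 points with the same p, and for both the block of pairs gave adjusted p = 0.0833 (exact permutation test). Knockdown moved these shares by −0.10 and 0.03 points (p = 0.643 and 0.864, exact permutation test). No MIR612 feature had enough counts for the test across all features.

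Within MALAT1 the reads were spread over the gene but nearly absent from the start of the feature. The first 1283 nt of the feature, up to 65499019, held 17 of 7436 counts over all libraries, or 13.2 per kb, whereas the next 2013 nt held 2369, or 1177 per kb. AP000769.2, a short feature of 446 nt on the opposite strand in this stretch, held 6 counts in all. Density then fell slowly, to 1082, 825 and 767 counts per kb in the following 3 stretches. The 1801 nt past the 3′ end of the feature held 22 counts, or 12.2 per kb. The density of the mascRNA feature relative to the gene was 2.97 in cyto, 2.64 in total and 0.32 in nuc. The difference of the share of the first 3296 nt between nuc and cyto did not pass (0.97 points, p = 0.535, adjusted p = 0.772, exact permutation test, a measure added after seeing the data).

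In NEAT1 the density was uneven within the first 3785 nt, the part shared by the short and the long transcript. There the first 1524 nt held 287 counts per kb, the next 490 nt 645, the next 154 nt 169 and the last 1617 nt 787, against 373 over the complete feature. The long-only part held 375 counts per kb in its first 3359 nt, 420 in the next 10263 nt and 164 in the last 5386 nt. The density of the shared 5′ part relative to the long-only part was 1.53 ± 0.15 in control total and 1.54 ± 0.19 in siSSB total (SD, n = 3), 1.51 ± 0.35 and 1.27 ± 0.14 in control and siSSB nuc, and 1.79 ± 0.31 and 1.84 ± 0.07 in control and siSSB cyto. The share of NEAT1 counts in the 5′ part was lower in nuc by 4.91 percentage points (p = 0.02, adjusted p = 0.048 over 12 share tests, exact two-sided permutation test), in 6 of 6 pairs. Its first 1524 nt went the other way, with 7.86% of the summed NEAT1 counts in control nuc and 5.06% in control cyto, and 6.21% and 4.35% in siSSB, shares that were not tested. The share of the complete 5′ part was added after seeing the data, and its adjusted p reached 0.05 or more without any 1 of 7 of the 12 libraries (up to 0.11) and 0.0938 with pairs as a block (exact permutation test). Those were control cyto 1 and 2, control nuc 1 and 3, and siSSB nuc 1, 2 and 3. Knockdown did not move it by the test (−0.66 points, p = 0.604, exact permutation test).

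**Figure D5:**
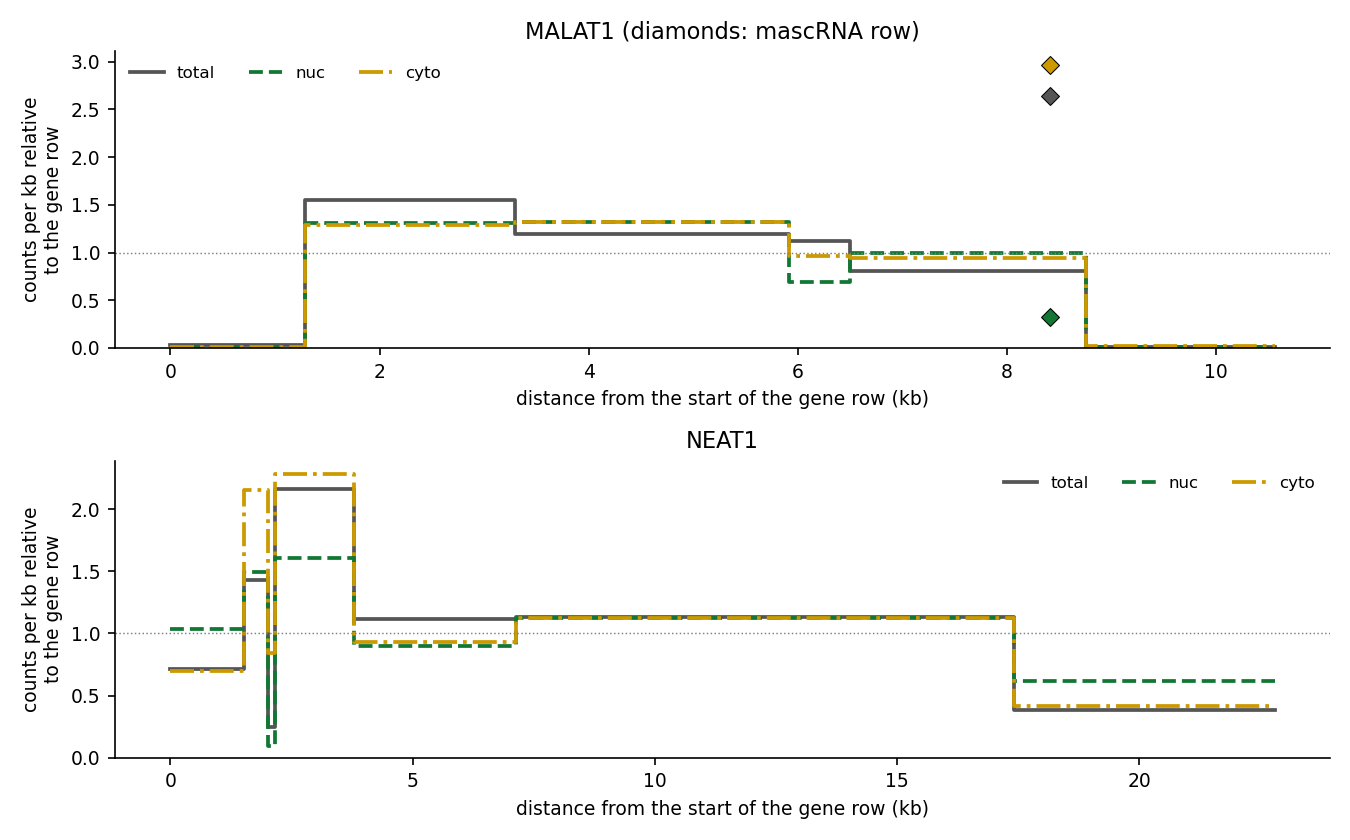
Counts per kb along the MALAT1 feature (top) and the NEAT1 feature (bottom), divided by the counts per kb of the complete feature, against the distance from its start in kb. Lines give all total, nuc and cyto libraries summed (6 each), the dotted line marks 1, and diamonds give the mascRNA feature. The MALAT1 start and the stretch past its end are almost empty, mascRNA stands at 2.97 in cyto and 0.32 in nuc, and NEAT1 has its densest stretches between 1524 and 3785 nt from its start.

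The only MALAT1-named feature of at most 500 nt (65504471 to 65504876, 406 nt) stood out on knockdown in total RNA without passing the test. Its counts went from 9, 14 and 17 with the scramble siRNA to 28, 36 and 25 with siSSB in total RNA, without overlap. The log2 fold change was 1.01 ± 0.29 (adjusted p = 0.106, edgeR quasi-likelihood test). Its share of MALAT1 was 3.44 ± 0.61% in control total and 6.01 ± 0.48% in siSSB total (SD, n = 3), yet 3.95 ± 2.10% and 4.11 ± 0.36% in nuc and 6.22 ± 0.56% and 5.84 ± 0.86% in cyto. Over the 3 kinds of RNA the difference of 0.78 points did not pass (p = 0.185, adjusted p = 0.247, exact permutation test), but did without control nuc replicate 3 (1.14 points, adjusted p = 0.0423). Between fractions the share differed by −2.0 points in nuc against cyto (p = 0.01, adjusted p = 0.02, exact permutation test), a call lost without any 1 of the 3 control cyto libraries (adjusted p = 0.056 to 0.0708) and with pairs as a block (0.1, exact permutation test).

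Other RNAs give the scale of these differences. RPPH1, the RNA of RNase P, and RMRP, its relative in RNase MRP, were higher in nuc in control cells by 2.09 ± 0.36 and 2.06 ± 0.34 on the log2 scale (adjusted p = 2.24e-05 and 1.39e-05, edgeR quasi-likelihood test), and neither was called on knockdown. Of 7 nuclear lncRNAs 5 were tested in control cells, of which KCNQ1OT1 (1.35) and PVT1 (1.14) were higher in nuc and FTX (−1.13) lower. A microRNA feature inside FTX held 23.1% of its counts. The largest short feature inside PVT1 held 6.21% and that inside KCNQ1OT1 0.314%. All 5 cytoplasmic lncRNAs were tested, and the 2 called, DANCR (5.61) and EPB41L4A-AS1 (5.14), were higher in nuc, with 60.8% and 97.7% of their counts in a snoRNA inside them. NORAD, another cytoplasmic lncRNA, differed by −0.46 in control (adjusted p = 0.455) and was lower in nuc in siSSB cells by 1.02 (adjusted p = 0.0473). All 6 snoRNA host genes were higher in nuc, by a median of 6.18. The largest snoRNA inside each held 52.6% (SNHG1) to 99.6% (SNHG6) of the host counts, so these values are largely those of snoRNA reads. On knockdown edgeR called 0 of the 18, 17 and 18 genes tested from these 4 lists in total, nuc and cyto, beside 1.34%, 0.378% and 0.291% of all features. At an unadjusted p under 0.05 there were 3, 2 and 1, beside 2301 of 13883, 959 of 6873 and 1260 of 18921 over all features. DESeq2 called 1 lower in total. RPPH1, RMRP, KCNQ1OT1 and PVT1 became lower in nuc under library size alone, the snoRNA total and the total of small features, as MALAT1, NEAT1 and the host SNHG8 did, and DANCR and EPB41L4A-AS1 under the snoRNA total alone (−0.36 and −0.88).

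By likeness of course over the 18 libraries, NEAT1 was closest to SCARNA2 (r = 0.918), a small Cajal body RNA, the overlapping lnc-TMEM167B-1 (r = 0.917) and the snoRNA SNORD59A (r = 0.913). MALAT1 had no neighbour as close, with lnc-PRR4-1 (r = 0.777), lnc-CTBP2-3 (r = 0.751) and lnc-CALCR-1 (r = 0.741) first among 4220 features of a mean of at least 50 counts outside the region. Between MALAT1 and NEAT1 r was 0.54. These are descriptions over libraries of 6 groups that share their fractions, without a test.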

How the data were processed

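Small RNA libraries from 18 samples in 6 groups (3 each) were compared. The authors deposited 1 table of raw counts per annotated feature. The submitters' processing notes name Bowtie2, bedtools and hg38, and the treatment of multimapping reads and of adapters was not given in the sources used here. Feature starts were counted from 0 and converted to 1. Of 417 features compared with GENCODE, 84.2% extended 25 nt past the annotated ends on both sides. The members and gene lists were chosen with earlier results of these data known.

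Counts were filtered with filterByExpr, scaled with TMM factors and tested by edgeR's quasi-likelihood method (edgeR 4.0.16 and limma 3.58.1 under R 4.3.3), fitted across all features of the groups compared, with Benjamini-Hochberg adjustment and a threshold of 0.05. Log2 ratios and shares of counts within a library were compared by exact permutation tests in Python 3.11.15. Labels were permuted separately within each kind of RNA (knockdown) or each condition (fractions), which counts all libraries as independent. Likeness was Pearson's r of log2(CPM + 0.5) over features with a mean of at least 50 counts, and the 3 closest features outside the region were named for MALAT1 and NEAT1, and for mascRNA as an addition made after seeing the data. The rule for naming takes all members, those 3 features and the listed RNAs (RNase P and MRP RNAs, nuclear and cytoplasmic lncRNAs and snoRNA hosts, each by its feature of highest mean count). DESeq2 1.42.0, RLE factors, library size, miRNA and snoRNA totals, no filter, identical features once, a replicate block, 1 fit of all libraries and leaving out each library were tried as alternatives, with a scaling to the total of small features and the shares of the NEAT1 5′ part and of the first 3296 nt of MALAT1 added after seeing the data. The scripts were first tested on simulated data. With counts of 0, limits are 3 counts over the total.

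Deviations from the group means correlated between same-numbered control nuc and control cyto libraries (r = 0.151, 0.223 and 0.197). The edgeR tests given in the Results, and those leaving out 1 library, did not use this pairing. With it as a block in the edgeR quasi-likelihood test, NEAT1 changed by 0.82 (adjusted p = 0.0152) and mascRNA by −3.98 (adjusted p = 0.000607).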

Additional observations from a re-analysis of the deposited data

How the results depend on the processing

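Depth limits the short features most, since mascRNA rests on 0 to 40 counts a library. Scaling by library size alone, by snoRNAs or by small features (the last chosen after seeing the data) reversed the nuc against cyto log2 differences. In control cells these became −3.98, −5.80 and −2.79 for MALAT1, −3.34, −5.14 and −2.15 for NEAT1 (−0.10 with the miRNA total, where MALAT1 was −0.65), −2.63, −4.37 and −1.44 for the first 1524 nt of NEAT1, and −3.99, −5.79 and −2.81 for the last 1360 nt of MALAT1. In siSSB cells they became −3.30, −5.34 and −2.18 for MALAT1, −2.99, −5.03 and −1.88 for NEAT1, −2.48, −4.51 and −1.37 for its first 1524 nt, and −2.67, −4.71 and −1.56 for the last 1360 nt of MALAT1. The cause of the remaining changes was not tested.

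In control cells NEAT1 did not pass without a filter (0.33) or with all libraries in 1 fit (0.68), and ranged from 0.64 to 0.87 without 1 library; in siSSB cells it passed with identical features taken once (0.82). The mascRNA feature in siSSB cells passed with RLE factors (−1.95), library size alone (−5.62), the snoRNA total (−7.63), the total of small features (−4.53), no filter (−2.27), all libraries in 1 fit (−2.02) and the replicate block (−1.90), and on knockdown in total with the miRNA total (−1.34). Without 1 library it was −7.06 to −3.49 in control nuc against cyto.

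Under the replicate block the nuc against cyto shares of mascRNA (−3.25) and of the 406-nt feature (−2.0) did not pass, in a test of 6 pairs, and neither did those of MIR612 and of the NEAT1 5′ part. The block changed no call of a ratio or of MALAT1 and NEAT1 levels. With 1 added to each count the 406-nt share (−1.64) did not pass, and the mascRNA share on knockdown was −1.42 and passed. Without 1 library the 406-nt share ranged from −2.52 to −1.48 between fractions and 0.44 to 1.14 on knockdown, the mascRNA share on knockdown from −1.51 to −0.95, and the NEAT1 5′ share from −6.06 to −4.16. Apart from control nuc and cyto, replicate numbers shared no pairing (r of deviations −0.821 to 0.699). The block called 199, 40 and 4 features on knockdown in total, nuc and cyto.

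The number of changed features ranged over the alternatives from 69 to 1920 for knockdown in total, 0 to 67 in nuc and 2 to 248 in cyto, against 186, 26 and 55 (edgeR with TMM factors, 2301, 959 and 1260 at an unadjusted p under 0.05), from 5043 to 34020 between fractions in control and 4884 to 35497 in siSSB cells, against 6242 and 6658, and from 1 to 24 for the difference of knockdown effects, against 5. In total RNA, 51 features were higher and 135 lower with TMM factors, but 628 and 88 with library size alone, 637 and 49 scaled to snoRNAs, 622 and 80 scaled to small features and 33 and 1887 scaled to miRNAs.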
